A study of Mus musculus with 4 samples.

Results

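Genes of the red cell membrane and of erythroid differentiation were read from arrays of whole kidneys, taken from C57BL/6 mouse embryos on embryonic day 15. The list named 34 genes, and each was followed through the probe set with the highest mean signal over all pools among the probe sets annotated to that symbol alone. A row was found for 31 of the 34, out of 18193 gene symbols on the array, while Epb41, Ahsp and Trim58 were not analysed here. The iron-deficient group came from dams on a synthetic diet with 2 to 6 ppm iron, and the control group from dams on a diet with 220 ppm iron. Both diets began 3 weeks before gestation in females that were 8 weeks old, and both groups were mated to C57BL/6 males, with no genetic modification stated. There were 2 pools for each diet, every pool holding 16 kidneys and read on 1 Affymetrix array. Pooling leaves no value for a single embryo. No label ties a pool to its own litters, so the p-values reflect the spread between pools alone, and that spread may be technical.

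Red cells form from progenitors under the control of a nuclear complex in which GATA1, TAL1 and LMO2 act together, with erythropoietin signalling through its receptor to keep precursors alive. Maturing cells then build a spectrin skeleton that is tied to the lipid bilayer through anion exchanger and Rh protein complexes, and import iron and glycine into mitochondria to make haem. At this stage of mouse development definitive red cells are made in the liver, and primitive red cells that formed in the yolk sac still circulate, so an embryonic kidney holds such cells in its vessels.

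The arrays did not weigh equally. Median signals over probe sets were 40 and 34 in iron-deficient pools 1 and 2, against 42.5 and 31.5 in control pools 1 and 2. An array background, set as the highest of 27 control probe sets for transcripts that were not added, was 14.4 and 13.3 in the iron-deficient pools and 8.5 and 8.2 in the control pools. The log2 signals of iron-deficient pool 1 correlated at 0.883 to 0.913 with those of the other arrays, over probe sets that are not independent of each other, and the other pairs reached 0.970 to 0.978. All 12 kidney markers with a row (of 14 listed) were above background in all 4 pools, among them Wt1 with 1649.4 and 1630.7 in iron-deficient pools and 1301.7 and 1324.1 in control pools. Their summed signal was 7049 and 6812 in the iron-deficient pools and 7252 and 7369 in the control pools. The markers differed by diet, however, with 3 higher and 6 lower on both iron-deficient arrays than on either control array. These are 25% and 50% of the 12, against 13.9% and 20.4% of all 45037 probe sets without a filter on dim signals. The 3 higher ones were Six2, Wt1 and Foxd1, and the 6 lower ones were Cited1, Gata3, Nphs1, Slc34a1, Umod and Aqp2. Among the lower ones, chosen after their values were seen, was the phosphate transporter gene Slc34a1 with 44.1 and 204.6 in iron-deficient pools and 870.3 and 785.2 in control pools. Another was Umod with 14.8 and 29.3 against 104.0 and 111.0. The labels give all pools as female. The Y-linked Eif2s3y was above background in every pool, with 253.6 and 20.8 in iron-deficient pools and 594.5 and 600.0 in control pools, and Xist read 3427 and 1543 against 926.6 and 167.8, so that these signals did not match 1 sex in every pool and differed by diet.

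The comparison of diets asked which of these red cell transcripts differed between embryos of iron-deficient and of control dams. Higher signals on each iron-deficient array than on either control array were read for 6 of the 8 red cell surface protein genes (1 of them, Xk, below background throughout), for the erythroid nuclear protein gene Hemgn, and for the dim transcription factor genes Gata1 and Gfi1b. In the probe set read for each gene, 3 of the 6 membrane skeleton genes and all 6 transport and enzyme genes with a row overlapped between diets. Overlap was the usual outcome on these arrays, since only 13.9% of all 45037 probe sets had both iron-deficient signals above both control signals and 20.4% below. A gene is called separated upward here where each iron-deficient pool exceeded both control pools, and separated downward where each lay below both. Of the 31 genes with a row, 13 were separated upward and 3 downward, which is 41.9% and 9.68% of them. Over all 45037 probe sets without a filter on dim signals these shares were 13.9% and 20.4%. Those shares count every probe set, whereas each red cell gene was read from 1 probe set. The gene list was also chosen with earlier results of these data known, so the contrast is a description and carries no test. No probe set passed an adjusted p of 0.05 by limma over the 27022 that were bright enough to be tested, which is a percent called of 0, and the smallest adjusted p among the red cell genes was 0.452. At an unadjusted p under 0.05 lay 4 of the 21 red cell genes that were tested, all higher, and none lower, which is 19.05% of them, against 1.14% of all tested probe sets called higher and 2.81% called lower. These 4 were Hemgn, Ermap, Slc4a1 and Rhd. Hemgn and Ermap were bright enough to be tested only through their iron-deficient signals, so the count of 4 favours a higher signal and is no support for one. With no filter on dim signals 7 red cell genes lay at an unadjusted p under 0.05 on the higher side and 0 on the lower side, against 2.09% and 2.44% of all probe sets. An exact permutation test on 2 against 2 pools cannot go below p = 0.333, two-sided. In pooled kidneys, more cells of a type and more RNA per cell cannot be told apart.

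Brightness decided which genes were tested. A probe set entered the test when the mean of its log2 signals reached the value of a signal of 17.3, and 10 of the 31 genes did not. Among these 10, 7 were separated upward and 0 downward. Over all tested probe sets the shares were 11.8% upward and 25.0% downward, and with the dim ones added 13.9% and 20.4%. Dim probe sets therefore leaned upward more than tested ones did. The array backgrounds under iron deficiency, 14.4 and 13.3, also exceeded those of the control arrays, 8.5 and 8.2. The part of these backgrounds in the count of 7 was not tested. Hemgn, Ermap and Trim10 passed the limit only through their iron-deficient signals, because the geometric means of their control signals were 17.04, 16.8 and 14.01, so that a count over tested genes favours a higher signal in one group. For that reason the median log2 difference of the 21 tested genes, -0.05 against -0.10 for all tested probe sets, is given as a description only.

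**Figure D1:**
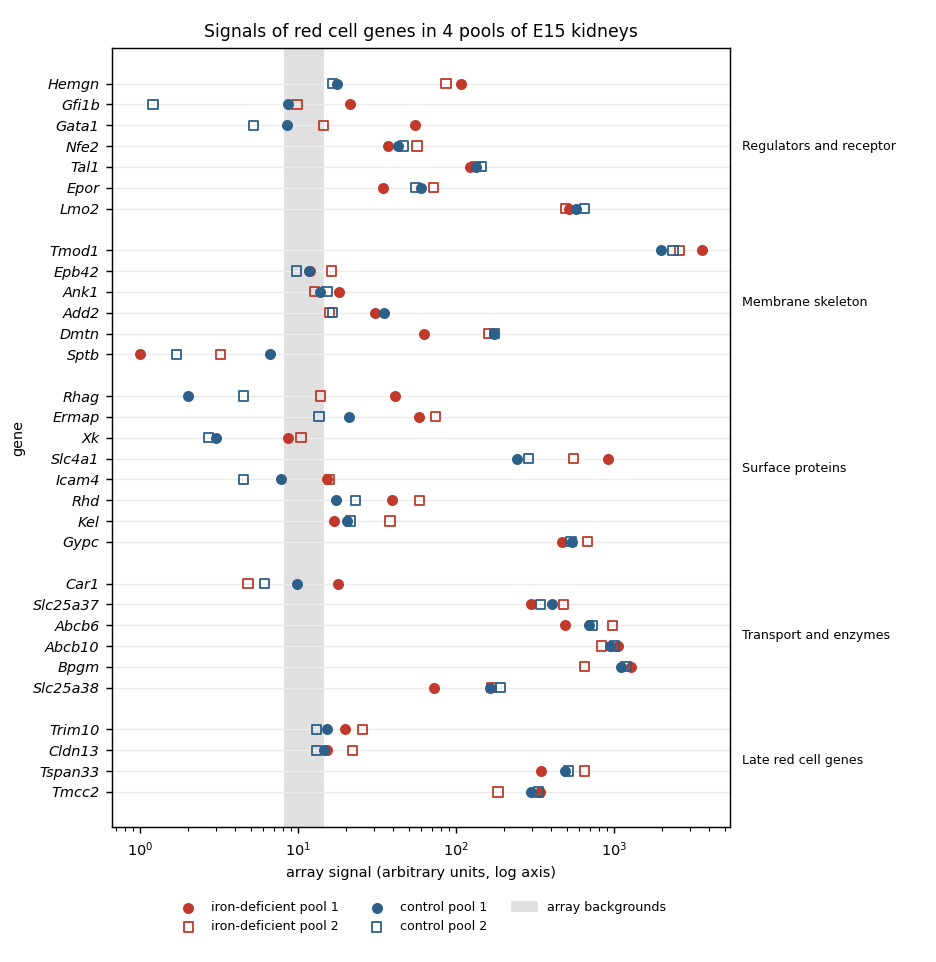
Array signals (log axis) of the 31 red cell genes in each pool, grouped by role, with iron-deficient pools in red and control pools in blue and the range of the array backgrounds, 8.2 to 14.4, in grey. Both red points lie to the right of both blue points for 13 genes, among them Hemgn, Ermap, Slc4a1 and Rhd, and to the left for Tal1, Lmo2 and Dmtn.

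GATA1 is known to bind GATA words near red cell genes, and some promoters are shown with the words that a search found. The 250 bases before each start site were taken from RefSeq on the GRCm38.p6 assembly, for 24 of the 34 genes in 29 promoters. The search was for AGATAA and TGATAA on both strands. On the printed strand the reverse complements of these words read TTATCT and TTATCA, and no matches overlap in the promoters shown. At least 1 match lay in 12 of the 29 promoters, which is 41.4%, and in 16.6% of all 32851 promoters of the same length. The following 6 promoters were chosen after the values were seen, all of them for holding a match. Promoters without a match are not shown, so the display does not compare genes by diet. The first 4 promoters are from genes separated upward and the last 2 from genes whose pools overlapped. Each runs 5′ to 3′ along the gene and ends at the base before the start site, and capitals mark the matches.
Hemgn (chr4:46404184-46404433, minus strand): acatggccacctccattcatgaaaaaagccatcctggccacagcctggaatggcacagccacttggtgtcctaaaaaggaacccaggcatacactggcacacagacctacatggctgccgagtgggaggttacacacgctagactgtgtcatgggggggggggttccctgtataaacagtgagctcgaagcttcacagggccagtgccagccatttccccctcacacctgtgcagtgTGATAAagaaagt
Rhag (chr17:40810899-40811148, plus strand): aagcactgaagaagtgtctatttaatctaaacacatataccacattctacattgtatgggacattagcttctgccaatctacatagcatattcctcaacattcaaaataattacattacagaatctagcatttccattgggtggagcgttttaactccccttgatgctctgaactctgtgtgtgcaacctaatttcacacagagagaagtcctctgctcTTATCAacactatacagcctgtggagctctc
Rhd (chr4:134864286-134864535, plus strand): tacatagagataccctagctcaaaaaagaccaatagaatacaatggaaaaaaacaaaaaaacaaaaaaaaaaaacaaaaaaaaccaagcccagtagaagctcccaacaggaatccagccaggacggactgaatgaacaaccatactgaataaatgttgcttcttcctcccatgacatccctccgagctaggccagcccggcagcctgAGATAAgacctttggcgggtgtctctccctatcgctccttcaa
Ermap (chr4:119189996-119190245, minus strand): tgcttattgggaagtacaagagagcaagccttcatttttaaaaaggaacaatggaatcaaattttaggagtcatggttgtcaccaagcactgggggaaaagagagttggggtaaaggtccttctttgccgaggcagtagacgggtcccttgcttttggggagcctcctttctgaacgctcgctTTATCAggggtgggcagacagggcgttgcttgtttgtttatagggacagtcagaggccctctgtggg
Epor (chr9:21963577-21963826, minus strand): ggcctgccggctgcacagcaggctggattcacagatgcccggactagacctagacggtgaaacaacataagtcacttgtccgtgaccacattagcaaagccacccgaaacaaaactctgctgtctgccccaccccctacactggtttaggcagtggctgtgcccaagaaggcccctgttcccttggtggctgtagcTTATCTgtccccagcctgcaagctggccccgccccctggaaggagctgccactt
Kel (chr6:41704326-41704575, minus strand): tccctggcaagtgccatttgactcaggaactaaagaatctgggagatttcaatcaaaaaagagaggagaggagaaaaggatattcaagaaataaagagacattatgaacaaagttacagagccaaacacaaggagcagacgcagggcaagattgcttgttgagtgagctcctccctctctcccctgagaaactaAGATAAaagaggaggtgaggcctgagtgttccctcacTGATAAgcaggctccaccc

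The capitals begin 13 bases before the start site in Hemgn, 31 in Rhag, 43 in Rhd and 67 in Ermap. In Epor a match begins 54 bases before the start, and in Kel matches begin at 56 and 19 bases. Of the 11 genes with a promoter that were separated upward, 8 had a match, and of the other 11 genes with both a promoter and a row, 4 had one. Of all 27025 genes with a promoter, 5092 had one. The split by signal was made on the measured values, in a list chosen with earlier results of these data known, and carries no test. The CACCC word, which KLF factors are known to bind, was searched on both strands as CACCC and GGGTG and lay in 69% of the 29 promoters and in 52% of all promoters. The Gata1 promoter held 2 CACCC matches and no match to the GATA words in this window. A match is a description of letters and not of binding.

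Among the regulators, Hemgn stood apart. Hemgn encodes hemogen, a nuclear protein of blood cell precursors that is known as a GATA1 target. Its signal was 107.1 and 86.0 in iron-deficient pools 1 and 2, against 17.6 and 16.5 in control pools 1 and 2. The lower iron-deficient signal was far above the higher control signal, and all 4 lay above background. The log2 difference, iron-deficient minus control as in all differences given here, was 2.49 ± 0.32 (SE), a fold of 5.63 between geometric means, with adjusted p = 0.452 by limma. The 95% interval of that difference was 1.68 to 3.30, for a gene that passed the brightness limit only through its iron-deficient signals.

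Gata1 and Gfi1b were dim, and their differences rest on signals near background or on a single pool. Gata1, the X-linked zinc finger factor that directs red cell and megakaryocyte differentiation, read 54.6 and 14.4 in the iron-deficient pools and 8.5 and 5.2 in the control pools. Neither control signal was above background, and against that background Gata1 was at least 3.36-fold higher in the iron-deficient pools, without a test. Iron-deficient pool 2 exceeded its own background of 13.3 by a narrow margin, so the size of the Gata1 difference rests on iron-deficient pool 1. Gfi1b, a zinc finger repressor of the same lineages, read 21.1 and 9.8 in the iron-deficient pools and 8.6 and 1.2 in the control pools. Only 1 pool of each diet was above background for Gfi1b, and no fold is given for it. The part of the unequal Xist and Eif2s3y signals in the differences of the X-linked genes Gata1 and Xk was not tested.

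No separation of that size was measured for the partners of GATA1. Tal1, a basic helix-loop-helix factor that is also expressed in endothelium, read 121.8 and 131.6 in the iron-deficient pools and 134.2 and 143.9 in the control pools. Both iron-deficient signals were lower, by a small margin, with a log2 difference of -0.13 ± 0.31 (SE), limma adjusted p = 0.914, and a 95% interval of -0.91 to 0.65. Lmo2, the adaptor that bridges TAL1 and GATA1 and is likewise found in endothelium, averaged 503.55 in iron-deficient and 612.65 in control pools (-0.28 ± 0.31, SE, n = 2 pools each). These signs are small next to their errors, and that of Tal1 turned after quantile normalization (0.035). Nfe2, a leucine zipper factor of red cells and megakaryocytes, read 36.8 and 56.4 in the iron-deficient pools and 42.9 and 46.5 in the control pools. Its iron-deficient signals lay on either side of the control signals, and the difference of 0.03 ± 0.36 (SE) had a 95% interval of -0.88 to 0.93. Epor, the erythropoietin receptor, read 34.4 and 71.5 in the iron-deficient pools and 59.6 and 55.1 in the control pools. Pool 1 was again the lower and pool 2 the higher of the 4, with a difference of -0.21 ± 0.44 (SE) and a 95% interval of -1.32 to 0.90.

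Surface proteins were the role in which most genes had higher iron-deficient signals. Of the 8 surface genes, 6 were separated upward and 0 downward, and the others, Kel and Gypc, overlapped. These are 75% and 0% of them, against 13.9% and 20.4% of all 45037 probe sets without a filter. As for the whole list, this contrast is a description and carries no test. Among those separated upward, Rhag and Icam4 had no control signal above background, and Xk was above background in no pool. Of the 5 surface genes that were tested, Ermap passed the brightness limit only through its iron-deficient signals, and none passed the test over all probe sets. Their summed signal, dominated by Slc4a1 and Gypc, was 1559 and 1445 in the iron-deficient pools and 850.4 and 888 in the control pools.

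Ermap, an immunoglobulin-like membrane protein that carries the Scianna blood group in humans, read 58.4 and 74.1 in the iron-deficient pools and 20.8 and 13.5 in the control pools. The diets were well separated, with a log2 difference of 1.97 ± 0.38 (SE), adjusted p = 0.713 by limma. Slc4a1, the band 3 chloride-bicarbonate exchanger, read 910.3 and 553.7 in the iron-deficient pools and 240.6 and 285.2 in the control pools. Its log2 difference was 1.44 ± 0.38 (SE), with adjusted p = 0.852 by limma. A shorter form of the same gene is made by acid-secreting intercalated cells of the kidney collecting duct, and which cells gave the signal here was not tested. A second, dimmer Slc4a1 probe set read 498.6 and 341.3 in the iron-deficient pools and 170.9 and 181.2 in the control pools, a difference of 1.23 ± 0.35 (SE). Both bright probe sets thus placed iron-deficient pool 1 highest and both control pools lowest, while the remaining one was too dim to test and overlapped.

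The Rh complex contributed 2 genes. Rhd, the Rh antigen protein, read 39.3 and 58.4 in the iron-deficient pools and 17.3 and 22.9 in the control pools. The pools did not overlap, and the log2 difference was 1.27 ± 0.37 (SE), with adjusted p = 0.852 by limma. Rhag, the Rh-associated glycoprotein that conducts ammonia and is needed for Rh proteins to reach the surface, read 41.0 and 13.8 in the iron-deficient pools and 2.0 and 4.5 in the control pools. Both control signals were below background, and the iron-deficient Rhag signals were 2.85-fold the control backgrounds, without a test. This fold too is not a lower limit on expression, and with the offset of 16 the log2 difference of Rhag was 1.10. As for Gata1, pool 2 was only just above its background.

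Icam4, the Landsteiner-Wiener adhesion protein, read 15.1 and 15.7 in the iron-deficient pools and 7.8 and 4.5 in the control pools. Its iron-deficient signals were 1.84-fold the control backgrounds, without a test. They were themselves close to their array backgrounds of 14.4 and 13.3, which exceed the control backgrounds of 8.5 and 8.2. Much of this fold therefore lies in the difference between backgrounds, and with the offset of 16 the log2 difference of Icam4 was 0.51. Xk, the X-linked partner of the Kell protein, read 8.6 and 10.4 in the iron-deficient pools and 3.0 and 2.7 in the control pools, with none of them above background. The order of the Xk signals therefore carries no fold, and a second Xk probe set, also dim, read 5.3 and 4.6 against 5.9 and 3.7. Kel, the Kell endopeptidase, averaged 27.45 in iron-deficient and 20.95 in control pools (0.28 ± 0.47, SE). Gypc, glycophorin C, which ties the skeleton to the membrane and is made in many tissues, averaged 575.3 in iron-deficient and 535.85 in control pools (0.08 ± 0.35, SE). For both genes iron-deficient pool 1 lay below the control pools and iron-deficient pool 2 above them.

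**Figure D2:**
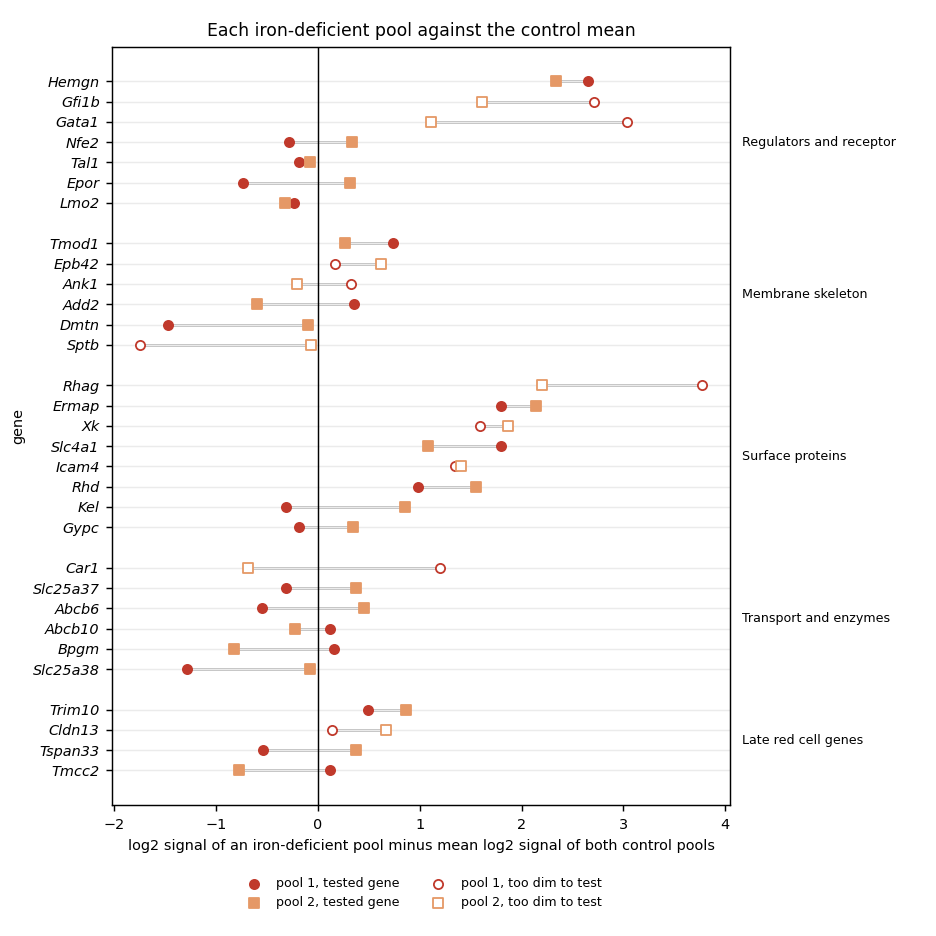
Log2 signal of each iron-deficient pool minus the mean log2 signal of both control pools, for 31 red cell genes by role (filled points, tested genes; open points, genes too dim to test, whose distance from 0 is not a measured size where control signals were not above background). Hemgn, Ermap, Slc4a1 and Rhd lie at 0.98 or more in both pools, whereas Kel, Gypc, Epor, Nfe2, Slc25a37, Abcb6 and Tspan33 have pool 1 below 0 and pool 2 above 0.

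Membrane skeleton genes showed no common direction. Of the 6 with a row, Tmod1 and Epb42 were separated upward, Dmtn was separated downward and Sptb, Ank1 and Add2 overlapped. The shares separated upward and downward were 33.3% and 16.7%, against 13.9% and 20.4% of all 45037 probe sets without a filter. Tmod1, tropomodulin, which caps actin filaments and is also made in muscle, averaged 3097 in iron-deficient and 2167 in control pools (0.50 ± 0.35, SE). Dmtn, the actin-bundling protein dematin, averaged 111.7 in iron-deficient and 172.85 in control pools (-0.79 ± 0.52, SE), and this difference came mostly from pool 1, without which it was -0.10. The spectrin gene Sptb was not above background in any pool, with signals from 1.0 to 6.6. The ankyrin gene Ank1 read 12.6 to 18.2 and the membrane protein gene Epb42 read 9.7 to 16.3 over the 4 pools, too dim for the test. Add2, the adducin subunit that joins spectrin to actin, had 3 tested probe sets that disagreed. The brightest, by mean signal, differed by -0.12 ± 0.53 (SE), the next by -0.002 ± 0.43, and the dimmest of them, with 28.0 and 23.2 in iron-deficient pools and 16.2 and 15.5 in control pools, by 0.69 ± 0.32.

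Transport and enzyme genes that serve haem and oxygen carriage overlapped between diets when each gene was read from its brightest probe set. Of the 6 genes of this role with a row, 5 were tested, and none had both iron-deficient pools on one side of both control pools. Most probe sets overlapped likewise, since 13.9% of all 45037 without a filter were separated upward and 20.4% downward. Slc25a37, the mitochondrial iron importer mitoferrin 1, averaged 387.95 in iron-deficient and 371.6 in control pools (0.03 ± 0.38, SE, with a 95% interval of -0.92 to 0.97). Slc25a38, the glycine carrier of haem synthesis, averaged 119.75 in iron-deficient and 176.9 in control pools (-0.68 ± 0.48, SE), and the difference was -0.08 without iron-deficient pool 1. The ATP-binding cassette transporters Abcb6, linked to porphyrins, and Abcb10, which stabilises mitoferrin 1, differed by -0.05 ± 0.43 and -0.06 ± 0.33. Car1, a carbonic anhydrase of mature red cells, read 17.8 and 4.8 in the iron-deficient pools and 9.8 and 6.1 in the control pools, and was above background in 1 pool of each diet.

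Bpgm, the enzyme that makes the bisphosphoglycerate by which oxygen is released from haemoglobin, gave different answers by probe set. Its brightest probe set read 1279.6 and 650.4 in the iron-deficient pools and 1111.2 and 1188.3 in the control pools, a difference of -0.33 ± 0.43 (SE) with overlapping pools. A second, named after its values were seen, read 212.7 and 296.8 in the iron-deficient pools and 535.0 and 501.2 in the control pools, and differed by -1.04 ± 0.34 (SE, limma adjusted p = 0.852). The dimmest read 149.6 and 180.4 against 299.1 and 291.3 and differed by -0.85 ± 0.32 (SE, limma adjusted p = 0.852). Both dimmer probe sets, each at an unadjusted p under 0.05, were thus lower in both iron-deficient pools, and all 3 had a negative sign.

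**Figure D3:**
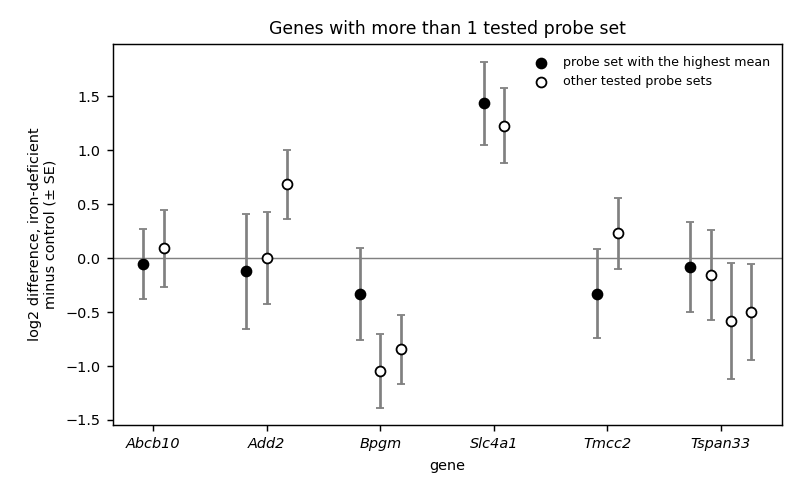
Log2 differences, iron-deficient minus control, with standard errors (n = 2 pools per diet) for the 6 red cell genes with more than 1 tested probe set. The Slc4a1 probe sets lie at 1.44 and 1.23, the Bpgm probe sets at -0.33, -1.04 and -0.85, and those of Abcb10, Add2 and Tmcc2 on both sides of 0.

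Late red cell genes were mixed. Trim10, a ubiquitin ligase of erythroid cells, averaged 22.6 in iron-deficient and 14.05 in control pools (0.68 ± 0.33, SE, limma adjusted p = 0.852), with no overlap. Cldn13, a claudin, read 15.2 and 21.9 in the iron-deficient pools and 14.5 and 13.1 in the control pools, too dim for the test. Tspan33, a tetraspanin of erythroid progenitors, averaged 497.4 in iron-deficient and 501.2 in control pools (-0.08 ± 0.41, SE), and its other 3 tested probe sets differed by -0.16, -0.58 and -0.50, each with overlapping pools. Tmcc2 averaged 261.65 in iron-deficient and 314.05 in control pools (-0.33 ± 0.41, SE), while its dimmer probe set differed by 0.23 ± 0.33.

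Many genes had opposite directions in the 2 iron-deficient pools. Of the 21 tested genes, 9 lay above and 11 below both control pools in iron-deficient pool 1, whereas 13 lay above and 7 below in iron-deficient pool 2. Over all tested probe sets these shares were 34.9% above and 52.6% below in pool 1, and 31.3% above and 40.5% below in pool 2. The median of the tested genes was -0.19 in pool 1 and 0.34 in pool 2 relative to the control mean. Hemgn, Slc4a1, Rhd, Ermap, Tmod1 and Trim10 were above both control pools in either pool.

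Other genes of the erythroid programme were read from a list of 31, of which 28 had a row and 27 were tested. At an unadjusted p under 0.05 lay 1 higher and 1 lower, and 6 were separated upward and 8 downward, against 11.8% and 25.0% of all tested probe sets. Their median log2 difference was -0.01. At the lower end was Alas2, which starts haem synthesis in erythroid mitochondria, with 135.4 and 305.8 in iron-deficient pools and 520.1 and 479.9 in control pools (-1.30 ± 0.47, SE, limma adjusted p = 0.852). The gene at the upper end was Kcnn4, the calcium-activated potassium channel of red cells, with 347.5 and 132.5 in iron-deficient pools and 79.1 and 86.8 in control pools (1.37 ± 0.52, SE, limma adjusted p = 0.852). Klf1, the red cell factor that binds CACCC words, read 38.7 and 89.2 in iron-deficient pools and 27.3 and 40.8 in control pools. Its diets overlapped, with a difference of 0.82 ± 0.51 (SE). The corepressor Cbfa2t3 differed by -0.85 ± 0.37, the membrane scaffold Mpp1 by -0.85 ± 0.38 and the transferrin receptor Tfrc by 0.51 ± 0.31, and none passed.

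Globins of primitive red cells were separated in the same direction as the surface proteins. All 3 embryonic globin genes were separated upward, against 13.9% of all 45037 probe sets without a filter. Hbb-y, the brightest, read 6816 and 4412 in the iron-deficient pools against 1848 and 2072 in the control pools (1.49 ± 0.37, SE). Their summed signal was 8321 and 5591 in iron-deficient pools and 2127 and 2456 in control pools.

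Markers of other blood and tissue cells were read beside these genes. Of 9 granulocyte genes, 9 were separated upward, with a summed signal of 2585 and 1817 in iron-deficient pools and 460.9 and 480.7 in control pools, and none was at 0. S100a9, the brightest, read 908.5 and 845.8 against 223.0 and 230.4. Hepatocyte genes split the iron-deficient pools, since their summed signal over 9 of 10 listed genes was 312.7 in pool 1 and 3064 in pool 2, against 1594 and 1450 in the control pools. Afp, the brightest of them, read 98.3 and 1290 in iron-deficient pools and 948.5 and 846.4 in control pools.

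Megakaryocyte genes, which share Gata1, Nfe2 and Gfi1b with red cells, were mixed. Of 9 with a row (of 11 listed), 3 were separated upward (33.3%) and 1 downward (11.1%). For this and the other marker lists, the shares over all 45037 probe sets without a filter were 13.9% upward and 20.4% downward. Those upward, named after their values were seen, were Vwf, Ppbp and Gp1bb, and Vwf read 73.4 and 155.2 in iron-deficient pools against 38.0 and 39.5. The gene separated downward, Gp6, was not above background in any pool. The summed signal of the 9 was 672.1 and 829.1 in iron-deficient pools and 716.2 and 649.5 in control pools. Pf4, platelet factor, read 343.6 and 504.5 in iron-deficient pools against 516.1 and 434.7. Of 8 mast cell genes, 2 were separated upward and 2 downward (25% each). Their sum of 227.5 and 606.9 in iron-deficient pools, against 1111 and 1292 in control pools, rested on Hdc, which is also made outside mast cells. Endothelial genes, which bear on Tal1 and Lmo2, had 1 of 8 separated upward (12.5%) and 4 downward (50%). The endothelial sum was 3237 and 4256 in iron-deficient pools and 5065 and 5284 in control pools. Macrophage genes had 0 of 9 separated upward and 3 downward (33.3%), with a sum of 1562 and 2276 against 2214 and 2458. No marker of these lists was at 0 in any pool, and the part of the granulocyte, hepatocyte, endothelial and kidney signals in the differences of the red cell genes was not tested.

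**Figure D4:**
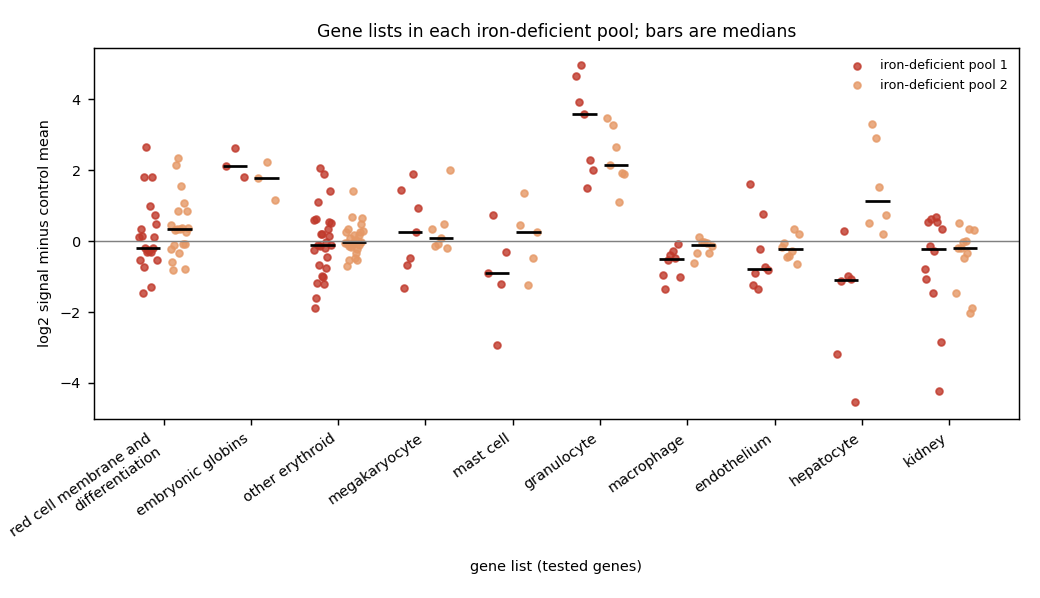
Log2 signal of each tested gene in iron-deficient pools 1 and 2 minus the mean of both control pools, by gene list, with bars at the medians. All 7 tested granulocyte genes lie above 0 in both pools, of which Mpo, Ctsg, Camp and Ngp passed the brightness limit only through their iron-deficient signals. Embryonic globin medians are 2.13 and 1.78, the red cell genes have medians of -0.19 and 0.34, and the hepatocyte medians are -1.09 and 1.13.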

How the data were processed

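RNA of 4 kidney pools was labelled with biotin and hybridised to Affymetrix arrays, per the labels' protocols. What the authors deposited is 1 linear intensity per probe set and array. The arrays average 250 once 2% of the probe sets are trimmed from either end. The submitters' processing notes name RMA, but the deposited intensities are neither logarithmic nor of a shared distribution, so the step that made them is unknown here. No array image or probe-level file was used here, and the number of arrays limits the precision.

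Zeros (1 to 3 per array) were set to 0.1 and signals turned to log2. Control probe sets (64) and the lowest 40% of the other 45037 by mean log2 signal were left out. Diets were compared with limma 3.58.1 in R 4.3.3 (lmFit, eBayes, diet as the only term, two-sided) with Benjamini-Hochberg adjustment over 27022 probe sets, 2 residual and 3.49 prior degrees of freedom. The fit was tested on simulated data. Symbols come from the platform annotation, where 34945 probe sets have 1 symbol, 932 several and 9160 none, and a gene was read from its probe set with the highest mean linear signal. Folds over the control backgrounds compare geometric means, with a dim control signal raised to its array's background. The iron-deficient signals were left as they stood. The brightness of different genes is not compared. The members and gene lists were chosen with earlier results of these data known. Per-pool values are given for members at an unadjusted p under 0.05 or a log2 difference of at least 1 in size, and for Gata1, Tal1, Nfe2 and Epor in any case; up to 6 other erythroid genes by smallest p and up to 2 defining markers per list are named, together with Klf1. Alternatives were no filter, a 60% filter, quantile normalization, median centring, an offset of 16, an intensity trend, array weights, a replicate block, leaving out each pool, a threshold of 0.10 on adjusted p, a single probe set for each gene and the mean of a gene's probe sets.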

Additional observations from a re-analysis of the deposited data

Results flagged for a closer look

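An array control that reads 18S ribosomal RNA near its 5′ end, and that enters no comparison above, gave 2144.5 in iron-deficient pool 1. It gave 243 in the other pool of that diet and 291.9 and 289.4 in the control pools.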

How the results depend on the processing

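Hemgn, Ermap, Slc4a1 and Rhd kept a positive difference in every alternative that tested them, which for the 60% filter was Slc4a1 alone. Hemgn ranged from 1.76 to 2.65 and passed after median centring (limma adjusted p = 0.00365) and with the replicate block (limma adjusted p = 2.9e-05), and Ermap passed with the block (limma adjusted p = 0.0032). In these settings every tested red cell gene had the same SE, 0.572 after median centring and 0.470 with the block. With either control pool left out the SE was likewise the same for all, 0.835. The p-values and counts of calls in these settings therefore do not reflect the spread of each gene between pools. The labels do not say that pool numbers pair samples, and same-numbered pools deviated together with r = 0.357 across probe sets. The block called 479 probe sets, 2 of them red cell genes, and median centring called 201, with 1. With 1 probe set per gene 13 genes passed, and with the mean of a gene's probe sets 10, none of them red cell genes. With pools left out in turn 0 to 75 probe sets passed (75 when control pool 1 was dropped and 31 when control pool 2 was), and 0 red cell genes. The 4 red cell genes higher at an unadjusted p became 1 with the lowest 60% left out and 7 without a filter, and 2 to 6 with a pool left out (2 without either control pool). Those lower at an unadjusted p were 1 with the mean of probe sets and 0 to 3 with a pool left out (2 without pool 1 of the iron-deficient diet and 3 without its pool 2). Genes with both iron-deficient pools higher numbered 2 with the 60% filter and 13 without a filter, against 6. Genes with both lower numbered 0 after median centring and quantile normalization, against 3. With a pool left out these counts were 6 to 13 and 4 to 11. The 13 counts iron-deficient pool 2 alone against the control pools, and the 11 counts iron-deficient pool 1 alone. Leaving out a pool can only keep or raise such counts, so these ranges do not show how steady they are. The median difference of the tested red cell genes was -0.19 to 0.34 with a pool left out.

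The sign turned for Tal1 (0.035), Abcb6 (0.072) and Tspan33 (0.081) after quantile normalization, for Add2 (0.188) and Abcb10 (0.018) with the mean of probe sets, and for Tmcc2 (0.229) with the probe set chosen by mean log2 signal. With each pool left out in turn the sign turned within these ranges: Nfe2 -0.279 to 0.337, Epor -0.736 to 0.319, Add2 -0.661 to 0.421, Kel -0.309 to 0.860, Gypc -0.191 to 0.346, Slc25a37 -0.318 to 0.371, Abcb6 -0.546 to 0.450, Abcb10 -0.227 to 0.116, Bpgm -0.821 to 0.155, Tspan33 -0.538 to 0.375 and Tmcc2 -0.773 to 0.116. Leaving out 1 iron-deficient pool turned the sign of each of these genes, and leaving out 1 control pool also turned those of Nfe2, Add2 and Slc25a37. The cause of these changes was not tested, apart from fewer genes or pools entering where some were left out. Signals near background limit Gata1, Gfi1b, Rhag, Icam4 and Xk.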
